A study of Mus musculus with 10 samples.

Results

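The CHD (chromodomain helicase DNA-binding) proteins are ATP-driven chromatin remodelers, and the data here give the levels of their 9 mouse genes, Chd1 to Chd9, in the prefrontal cortex of Arid1b-mutant and wild-type pups. The members were the rows of the deposited gene table whose Ensembl identifier carries a symbol from Chd1 to Chd9, and all 9 were found among the 18216 genes listed. All 9 were also among the 16781 genes tested, those with a mean value of 10 or more.

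RNA sequencing was done on 10 male C57BL/6N mice at postnatal day 10 (P10), with 1 library per mouse. Of these, 5 were Arid1b heterozygotes (HT1 to HT5) and 5 were wild types (WT1 to WT5). The HT mice carried a germline deletion at exon 5 of 1 Arid1b copy, made with a Cas9 nickase and predicted to truncate the protein, in every cell of the body, and came from HT fathers and WT mothers. No group was treated, and both shared strain, sex, age and tissue.

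CHD proteins share a pair of chromodomains and a SNF2-type ATPase that slides or evicts nucleosomes. They fall into 3 subfamilies. Subfamily I (Chd1, Chd2) works with transcribing RNA polymerase, subfamily II (Chd3, Chd4, Chd5) supplies the alternative ATPases of the NuRD histone deacetylase complex, and subfamily III (Chd6 to Chd9) acts mostly at promoters and enhancers. Several members are haploinsufficiency genes of human neurodevelopment, among them CHD8 in autism, CHD2 in epileptic encephalopathy and CHD7 in CHARGE syndrome. ARID1B belongs to the BAF complex, a remodeler with a different ATPase, and comparing HT with WT mice asks whether the CHD genes are expressed at other levels when 1 Arid1b copy is lost.

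The values are normalized read counts, that is, estimated reads per gene divided by the authors' size factors, with totals of 31106330 to 32106791 per sample. Sequencing depth is unknown, so the precision of each value rests on the spread between mice. Arid1b matched the labels of all 10 libraries, with 1767 to 1987 in HT and 2662 to 3018 in WT mice (log2 difference -0.59, limma adjusted p = 9.96e-05). Cortical neuron markers were high in every mouse (Slc17a7, the vesicular glutamate transporter of cortical excitatory neurons, at least 37828). Striatal markers were present at uneven amounts, with 10 genes summing to between 6630.0 and 23438 normalized read counts. Olfactory bulb markers varied as well (Cdhr1, for instance, from 391 to 2197), and their sum of 8 genes was highest in HT2 and WT4. These are bulk samples, in which fewer cells of a type and less RNA per cell cannot be told apart.

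The first question was how strongly each member is expressed, with levels compared only per kilobase of exon because long genes collect more reads. Subfamily II stood far above the rest. Chd3 had 3216 ± 143 normalized read counts per kilobase (SD, n = 10 mice), more than 98.3% of the genes tested. Chd5, a largely neuronal gene, followed at 1281 ± 52.0 and Chd4, the widely expressed NuRD ATPase, at 784 ± 43.8. Their ranges over the 10 mice did not overlap, so the order Chd3, Chd5, Chd4 held in every animal.

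The remaining members lay lower. Chd8, whose protein binds many active promoters, had 226 ± 25.7 per kilobase, above the next member in 10 of 10 mice. Chd6 (152 ± 12.5), Chd9 (150.0 ± 8.46) and Chd2 (147 ± 19.6) had overlapping ranges, and the order among them was not resolved beyond the spread between mice. Chd1 was at 95.5 ± 8.98, and Chd7 was the lowest at 39.4 ± 10.5, above only 28.6% of tested genes. The highest and lowest members differed 81.6-fold in level per kilobase. With the longest annotated transcript as the length, 7 of the 9 members kept their rank and only Chd6 and Chd9 changed places.

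**Figure D1:**
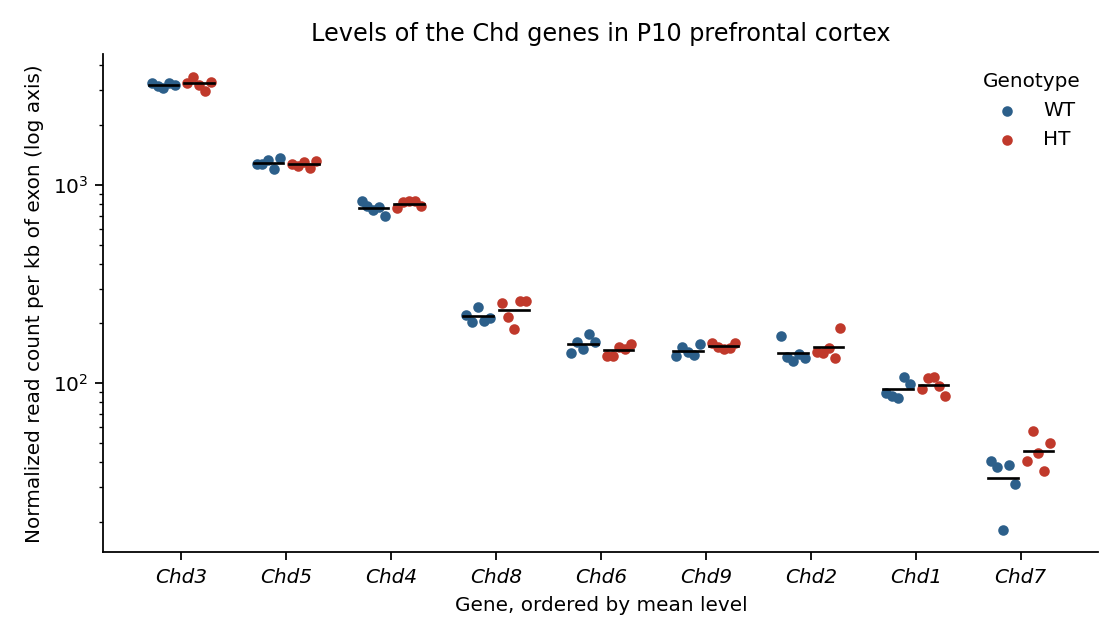
Normalized read count per kilobase of exon (log axis) for each Chd gene, ordered by mean level, with 5 WT mice in blue, 5 HT mice in red and black bars at the group means. Chd3, Chd5 and Chd4 lie apart from the rest without overlap, Chd6, Chd9 and Chd2 share a range, and Chd7 is lowest and most spread.

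The 3 NuRD ATPase transcripts kept nearly the same proportions in both genotypes. Of their summed level per kilobase, Chd3 made up 61.0% ± 1.41 in HT and 60.8% ± 0.993 in WT mice (SD, n = 5 each). Chd4 made up 15.1% ± 0.908 in HT and 14.6% ± 0.845 in WT, and Chd5 23.9% ± 0.877 in HT and 24.6% ± 1.33 in WT. The sum of the subfamily was 5317 ± 207 per kilobase in HT and 5246 ± 75.9 in WT. The groups overlapped in all of these, and the HT mice were more spread than the WT mice in the sum.

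All 9 genes are protein-coding and long. Their exonic lengths run from 8019 bases for Chd4 to 23148 for Chd9, against a median of 4194 among the tested genes, and each is longer than at least 83.7% of them. Spans on the chromosome vary more. Chd3 (GRCm38 chromosome 11, 69343273 to 69369406, minus strand) covers 26.1 kb, near the median of 22.3 kb, whereas Chd9 (chromosome 8, 90828352 to 91054516, plus strand) covers 226 kb.

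The second question was whether any member differed between the genotypes. By limma, 0 of the 9 genes had an adjusted p under 0.05, where 0.0179% of all tested genes did. One member, Chd7, had an unadjusted p under 0.05 (1 of 9, where 9.23% of all tested genes did, 4.71% in the direction higher in HT and 4.52% lower). The 5 HT and 5 WT values overlapped for every member, and 1.62% of tested genes were without overlap. Adjusted p-values of the members from limma ran from 0.50 to 0.90. The log2 difference was positive for 7 of the 9 members, against 48.8% of all tested genes, and negative for Chd5 and Chd6, and the median log2 difference over the members was 0.07, against -0.004 over all tested genes. For 8 of the 9, Chd7 being the exception, the 95% interval of the difference lay between -0.3 and 0.3 on the log2 scale. Intervals that include 0 do not show that the levels are equal.

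**Figure D2:**
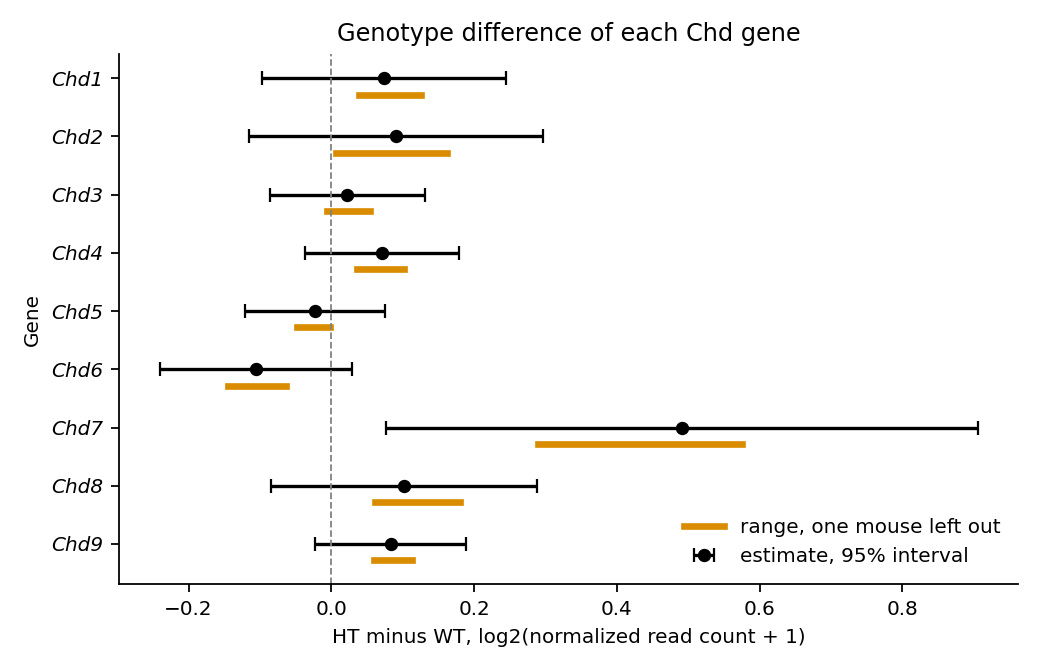
Difference HT minus WT of log2(normalized read count + 1) for each Chd gene, with black points and bars for the limma estimate and its 95% interval and orange bars for the range of estimates when each mouse was left out in turn. The intervals of 8 genes include 0, and that of Chd7 runs from 0.08 to 0.91.

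Chd7 is the member whose loss causes CHARGE syndrome, and in the brain it acts in neural progenitors and in oligodendrocyte precursors. Its normalized read counts were 557, 788, 614, 496 and 689 in HT1 to HT5 and 558, 522, 251, 533 and 428 in WT1 to WT5. HT2, HT3 and HT5 lay above every WT mouse, HT1 and HT4 lay among them, and WT3 lay far below the rest. The means were 629 ± 114 in HT and 458 ± 126 in WT (SD, n = 5), a log2 difference of 0.49 (SE 0.19, 95% interval 0.08 to 0.91). The unadjusted limma p was 0.0234 and the adjusted p 0.50, so the difference did not pass across all genes. It was the most variable member, with a 3.13-fold range over the mice and a residual SD on the log2 scale larger than that of 86.5% of tested genes.

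WT3 and HT2 weighed on this difference. Without WT3 it was 0.29 (unadjusted limma p 0.0378, adjusted p 0.76), and without HT2 it was 0.41 (unadjusted limma p 0.0622, adjusted p 0.70). With HT2, HT5 and WT4, which lay apart on the first principal component in an earlier look, left out together, it was 0.39 (unadjusted limma p 0.105).

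Marker levels of other cell types differed between the same mice, and in part followed Chd7. The 12 oligodendrocyte-lineage markers, from Pdgfra and Olig2 of precursors to Mbp of myelin, summed to 70049 to 93906 in HT and 41504 to 96861 in WT mice, and WT3, lowest in Chd7, was also lowest in this sum. Not every mouse followed this order, since HT5, second highest in Chd7, had the lowest HT sum and WT2, at a Chd7 value of 522, the highest sum of all. In WT3 each of the 12 was the lowest of the 10 mice (Mbp, for instance, 16202 against 26330 or more in the others), and all 12 had a higher mean log2 value in HT, with a median log2 difference of 0.21 and 1 of 12 (Cspg4) at an unadjusted limma p under 0.05, a share near the 9.23% of all tested genes. The 12 astrocyte markers summed to 175829 to 222622 in HT and 160249 to 188070 in WT, with HT2 and HT5, highest in Chd7, also highest here, but HT4, lowest of the HT mice in Chd7, came next at 202124. All 12 astrocyte markers had a higher mean log2 value in HT, against 48.8% of all tested genes, and 7 of the 12 had an unadjusted limma p under 0.05, against 9.23%. Microglial markers were likewise highest in HT2 (a sum of 15490.1) and HT5 (14939), with 10 of 10 higher in mean log2 value in HT and 3 of 10 at an unadjusted limma p under 0.05. Of 8 proliferation markers, all had a higher mean log2 value in HT (median difference 0.20), from 0.002 for Pcna to 0.42 for Ccnb1. Only Ccnb1 had an unadjusted limma p under 0.05, 1 of 8 beside the 9.23% of all tested genes. Striatal markers were lowest in WT3 (6630.0) and WT5 (6984), the mice lowest in Chd7, but HT5, second highest in Chd7, was nearly as low (7636) and every other mouse was at 15230 or more. Of 10 striatal markers, 9 were higher in mean log2 value in HT, with a median difference of 0.54, the largest of the marker lists. Of 8 olfactory bulb markers, 7 were higher in HT (median difference 0.21). In both lists 0 had an unadjusted limma p under 0.05. Immature-neuron markers went the other way in part, with 7 of 8 lower in mean log2 value in HT. Among these, Dcx (-0.0003), Sox4 (-0.002) and Stmn1 (-0.02) were near 0, and Sox11 was higher in HT (0.15). The 3 of 8 at an unadjusted limma p under 0.05 were Tubb3, Stmn2 and Dpysl3, against 9.23% of all tested genes. No marker of these lists was at 0 in any mouse. With a score of the oligodendrocyte-lineage markers in the limma model the Chd7 difference was 0.18 (unadjusted p 0.185), with the astrocyte score 0.19 (unadjusted p 0.379), and with the striatal score 0.42 (unadjusted p 0.0473). The oligodendrocyte-lineage score was chosen after the data were seen. Most markers in each of these scores were higher in HT, so the fits cannot tell genotype from the mix of cell types. The part of these cells in the Chd7 difference was not tested.

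**Figure D3:**
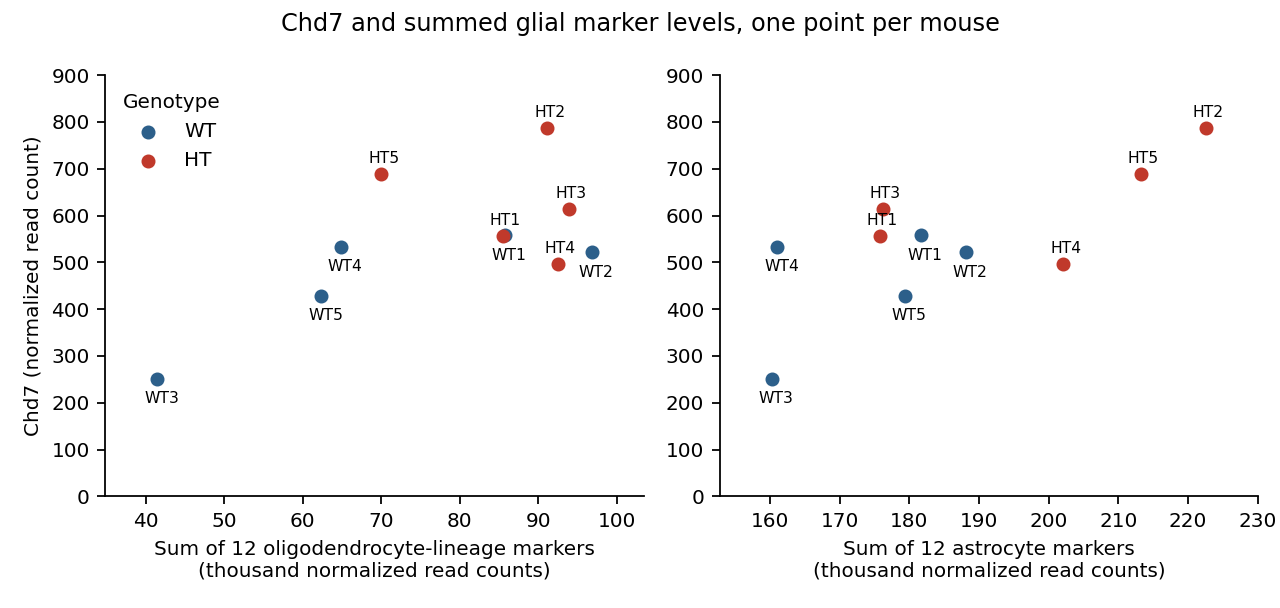
Chd7 normalized read count per mouse (vertical axis, from 0) against the summed normalized read counts of 12 oligodendrocyte-lineage markers (left) and 12 astrocyte markers (right), with WT mice in blue and HT mice in red. WT3 is lowest on both axes of both panels, and HT2 and HT5 have the highest Chd7 values and the highest astrocyte sums.

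The other members of subfamily III differed less. Chd8, an autism risk gene, had normalized read counts of 4166, 3543, 3082, 4299 and 4276 in HT1 to HT5 and 3640.3, 3376, 3998, 3392 and 3528 in WT1 to WT5. HT1, HT4 and HT5 lay above all WT mice, while HT3 was the lowest of all 10. The log2 difference was 0.10 (SE 0.09, 95% interval -0.09 to 0.29, limma adjusted p = 0.70), and it moved with single mice, to 0.18 without HT3 (unadjusted limma p 0.0202, adjusted p 0.40) and to 0.06 without HT4 or without HT5 (unadjusted limma p 0.509 and 0.497). With the oligodendrocyte-lineage score it was 0.17.

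Chd9, a close relative of Chd6 to Chd8 with a broad pattern of expression, had 3447 to 3695 in HT and 3158 to 3666 in WT mice. The lowest HT value exceeded the WT mean of 3374, while WT2 and WT5 lay within the HT range. The log2 difference was 0.08 (SE 0.05, limma adjusted p = 0.60), and without WT5 it was 0.11 (unadjusted limma p 0.0351, adjusted p 0.65). Chd6 was the member with the largest negative difference. Its values were 2605 to 3008 in HT and 2696 to 3373 in WT, and the WT mean of 3009 lay just above the highest HT mouse. The log2 difference was -0.11 (SE 0.06, 95% interval -0.24 to 0.03, limma adjusted p = 0.60), without WT1 it was -0.14 (unadjusted limma p 0.036, adjusted p 0.57), and without WT4 it was -0.06 (unadjusted limma p 0.302). With HT2, HT5 and WT4 left out together the difference was -0.07 for Chd6 and 0.05 for Chd9.

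In subfamily II the spread between mice was small, with standard errors close to that of Chd9. Chd3 had 25058 to 29583 in HT and 26009 to 27608 in WT mice, with the highest and the lowest of all 10 values (HT2 and HT4) in the HT group. Its log2 difference was 0.02 (SE 0.05, 95% interval -0.09 to 0.13). Chd4, required for the proliferation of progenitors and for synapse maturation, had 6095, 6579, 6616, 6634 and 6281 in HT1 to HT5 and 6665, 6282, 6014, 6164 and 5562 in WT1 to WT5. Its groups overlapped, with WT1 the highest of all and WT5 the lowest, and the log2 difference was 0.07 (SE 0.05, 95% interval -0.04 to 0.18), or 0.04 without WT5. For Chd4 it was 0.03 with the oligodendrocyte-lineage score and 0.05 with the astrocyte score or with correction for GC content and length. Chd5 had 11595 to 12599.6 in HT and 11525 to 13113 in WT, a log2 difference of -0.02 (SE 0.05, 95% interval -0.12 to 0.07). For Chd3 and Chd5 the difference was so near 0 that leaving out single mice moved it between -0.01 (without HT2) and 0.05 (without HT4), and between -0.05 (without WT4) and -0.001 (without WT5). Chd3 changed direction under further settings, and Chd5 ran from -0.06 with correction for GC content and length to 0.02 with quantile normalization. Limma adjusted p-values were 0.90, 0.64 and 0.89 for Chd3, Chd4 and Chd5.

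**Figure D4:**
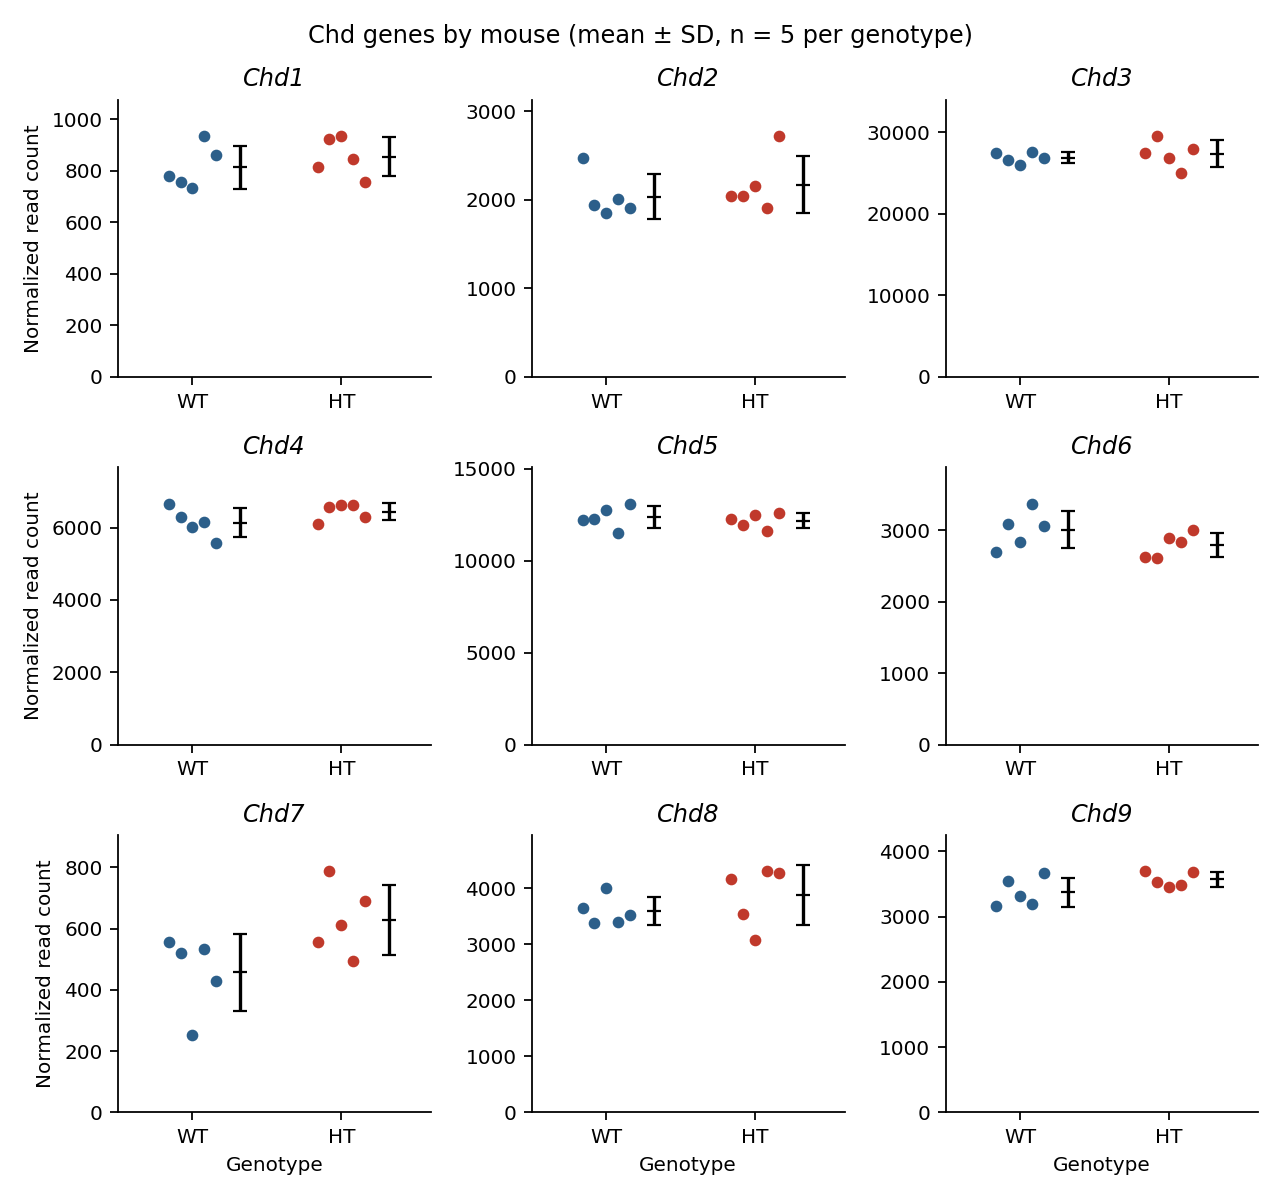
Normalized read counts of each Chd gene (vertical axes from 0, each panel with its own scale), with 5 WT mice in blue, 5 HT mice in red and the mean ± SD in black beside each group. The groups overlap in all 9 panels, the relative spread is largest for Chd7, and single mice stand apart for Chd2 (HT5 and WT1).

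In subfamily I, Chd1, which follows elongating RNA polymerase, had 755 to 933 in HT and 732 to 935 in WT mice (log2 difference 0.07, SE 0.08, limma adjusted p = 0.77). Leaving out single mice moved that difference between 0.04 (without WT3) and 0.13 (without WT4), and by over 1.5 times also without HT2, HT3 or HT5, to 0.05, 0.04 and 0.12. It was 0.15 with HT2, HT5 and WT4 left out together and 0.04 with the striatal or the oligodendrocyte-lineage score. Chd2, which deposits the histone variant H3.3, had 2046, 2041, 2152, 1907 and 2723 in HT1 to HT5 and 2472, 1939.8, 1852, 2014 and 1905 in WT1 to WT5. A single mouse of each genotype, HT5 and WT1, stood above the other 8, which lay between 1852 and 2152. The log2 difference was 0.09 (SE 0.10, 95% interval -0.11 to 0.296, limma adjusted p = 0.76), without HT5 it was 0.01, and without WT1 it was 0.16 (unadjusted limma p 0.0841). The direction turned with the astrocyte score in the model (-0.01), and the difference was 0.003 with HT2, HT5 and WT4 left out together and 0.05 with the oligodendrocyte-lineage score.

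The Chd2 value needs a further remark on counting. The gene (GRCm38 chromosome 7, 73426638 to 73541830, minus strand) overlaps a noncoding gene on the same strand, 1810026B05Rik (chromosome 7, 73539203 to 73558395), known as Chaserr and described as a repressor of Chd2 in cis. Of the 31-base words in Chd2 transcripts, 17.7% also occur in transcripts of 1810026B05Rik, so reads can be shared between them. For each of the other 8 members at most 3.25% of the words occur in any other gene. The gene 1810026B05Rik, examined after its values were seen, had 247, 250.1, 196, 239.7 and 301 normalized read counts in HT1 to HT5 and 207, 214, 217, 180.1 and 210.3 in WT1 to WT5. HT5 was highest in both Chd2 and 1810026B05Rik, whereas WT1, the next highest in Chd2, was not raised in the noncoding gene. Its log2 difference was 0.25 (SE 0.11, unadjusted limma p 0.0369, adjusted p 0.51).

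The genes that work with CHD proteins were then examined in 4 lists. The NuRD complex joins a CHD ATPase to the deacetylases Hdac1 and Hdac2, the scaffolds Mta1 to Mta3, the histone-binding proteins Rbbp4 and Rbbp7, and Mbd2, Mbd3, Gatad2a, Gatad2b and Cdk2ap1. Of these 12 subunits 0 had an adjusted p under 0.05 by limma and 0 an unadjusted p under 0.05. Their log2 differences ran from -0.06 to 0.12, with a median of 0.03, and Rbbp7 had the highest level, at 1356 ± 61.3 per kilobase.

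The 13 remodeler ATPases outside the CHD family included the BAF ATPases Smarca4 and Smarca2, the ISWI ATPases Smarca1 and Smarca5, and Ino80, Srcap and Atrx. By limma 0 of 13 had an adjusted and 0 an unadjusted p under 0.05, and the log2 differences ran from -0.14 to 0.14 with a median of -0.004. Smarca4, a BAF ATPase like Smarca2, had the highest level in this list at 932 ± 65.0 per kilobase (SD, n = 10 mice), between the means of Chd5 and Chd4. Its log2 difference was -0.07 (unadjusted limma p 0.242).

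Of 11 elongation factors tied to Chd1 (the FACT subunits Ssrp1 and Supt16, the PAF1 complex and the Spt proteins), 0 had an adjusted and 0 an unadjusted p under 0.05 by limma, with a median log2 difference of -0.001. Supt6, a histone chaperone of transcribed genes, had the highest level at 758 per kilobase. Of 12 genes for the machinery of histone H3 lysine 4 methylation, a mark that the human CHD1 chromodomains bind, and for H3.3, 0 had an adjusted p under 0.05 by limma and 1 an unadjusted p under 0.05. This was Kmt2a, a methyltransferase, at 4992 to 5355 in HT and 5126 to 5964 in WT mice, a log2 difference of -0.10 (SE 0.05, unadjusted limma p 0.0376, adjusted p 0.51). Its unadjusted p was under 0.05 in 13 of 25 alternatives. It was not without HT1, HT2, HT5, WT1, WT3 or WT4, nor with quantile normalization, sample quality weights, no variance trend or the oligodendrocyte-lineage score, nor with the astrocyte score (-0.07, unadjusted limma p 0.232) or with HT2, HT5 and WT4 left out together (-0.05, unadjusted limma p 0.239). The H3.3 gene H3f3b had the highest level of that list, at 1648 per kilobase. The counts in all 4 lists, 1 of 48 genes, lay below the 9.23% of all tested genes at an unadjusted p under 0.05.

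**Figure D5:**
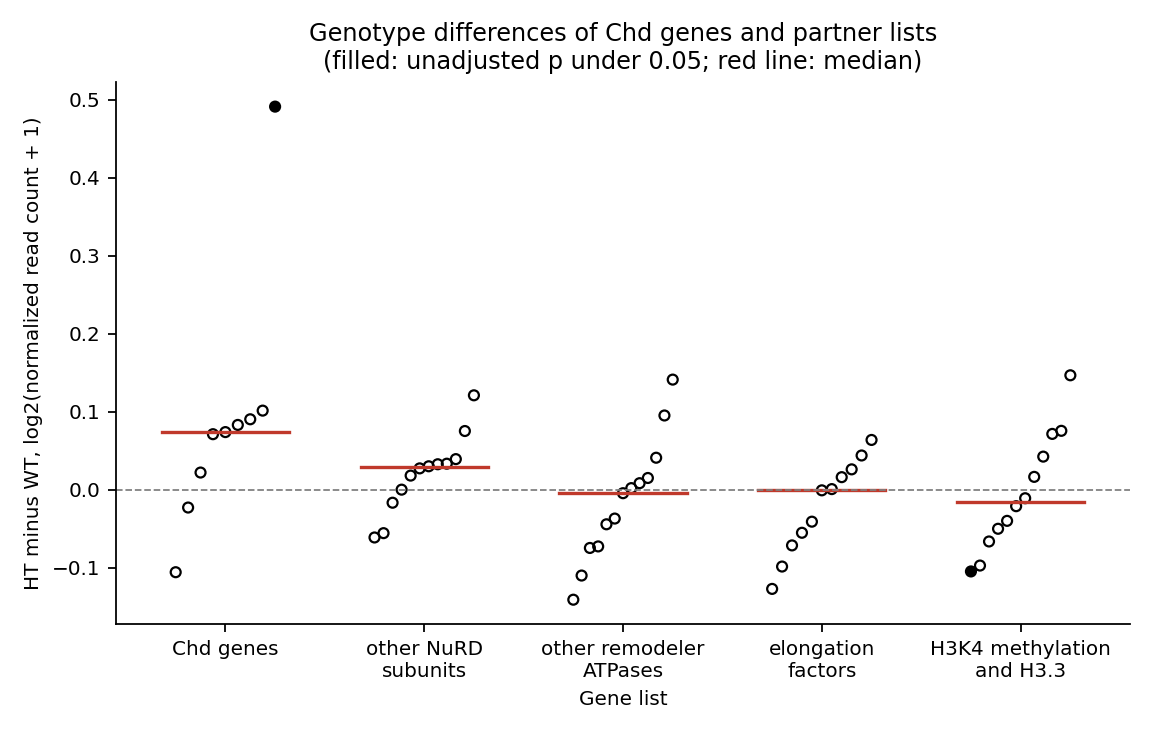
Difference HT minus WT of log2(normalized read count + 1) for the 9 Chd genes and for the genes of the 4 partner lists, 1 point per gene, with red lines at the medians and filled points for an unadjusted limma p under 0.05. Chd7 is the only point beyond 0.15 in either direction, and Kmt2a is the other filled point.

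The members did not move as a group from mouse to mouse. After each genotype's mean was taken off, Pearson correlations of the log2 values over the 10 mice ran from -0.77 (Chd4 and Chd9) to 0.69 (Chd3 and Chd7) over the 36 pairs of members, with a median of 0.01 and 18 pairs above 0. These values describe 10 libraries that share tissue dissection and normalization, and no test was made of them.

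Each member was also set against the 13879 other genes with a mean of at least 50, to name the 2 whose deviations over the 10 mice were most alike. With this many genes compared over so few mice, high values arise readily. For Chd7 these were Trip10 (r = 0.96) and Cers2 (r = 0.95), the latter a ceramide synthase that makes the very long-chain lipids of myelin. Cers2 had 1286 to 1529 normalized read counts in HT and 999 to 1272 in WT mice, without overlap (log2 difference 0.20, unadjusted limma p 0.0199, adjusted p 0.50). Trip10, the closer match, had means of 153 in HT and 152 in WT mice, with overlap (log2 difference 0.03, unadjusted limma p 0.825). WT3 and WT5 were the lowest mice in both Cers2 and Chd7. For Chd3 they were Fam181b (0.95) and Meis3 (0.94), for Chd4 Wbp1 (0.94) and Cfp (0.93), and for Chd5 Coq3 (0.96) and Camk1g (0.95), a calmodulin-dependent kinase of neurons. For Chd1 they were Znhit1 (0.93), a subunit of the SRCAP remodeler, and Hspa14 (0.93), and for Chd2 Ptk7 (0.93) and Gm16536 (0.91). For Chd6 they were Nudt10 (0.93) and Zfp804b (0.88), for Chd8 Sc5d (0.93) and Mrpl48 (0.90), and for Chd9 Zkscan6 (0.95) and Agbl3 (0.91).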

How the data were processed

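According to the methods of the study, poly-A RNA was sequenced in paired ends, transcripts were quantified with Salmon 1.1.0 with GC bias correction on GRCm38, and estimates were summed to genes with tximport. The deposited values are a normalized signal per gene, here called the normalized read count, which the authors obtained by dividing estimated reads by DESeq2 size factors (version 1.30.1 in the submitters' processing notes). At most 21.1% of the values under 20 in a sample were whole multiples of a common step (tolerance 0.02), so reads were not recovered and no count model was used. Size factors make every difference relative to the other genes.

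Symbols, positions and lengths came from GENCODE M21 (GRCm38), where 18205 of 18216 identifiers were found. Values were taken as log2(value + 1), and limma 3.58.1 (run in R 4.3.3, mean-variance trend, genotype as the only factor) was applied to genes with a mean of 10 or more, with Benjamini-Hochberg adjustment over all tested genes at 0.05. Such log2 differences understate changes of low genes. Levels per kilobase used the union of annotated exons. The fit was checked on simulated data. Tables were made with Python 3.11.15 and pandas 2.3.3.

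Genes named by rule were Arid1b, the members, partner genes at an unadjusted p under 0.05 or without overlap, the highest partner of each list per kilobase, and the 2 genes most like each member. Marker genes given as examples and 1810026B05Rik lie outside that rule and were chosen after their values were seen. The members and lists were chosen with earlier results of these data known. Groups and replicate numbers came from sample titles, and the numbers belong to different mice.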

Additional observations from a re-analysis of the deposited data

Results flagged for a closer look

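Each genotype's 5 values were examined for a mouse far from the others in the 9 Chd genes and Arid1b, by how much of the group's range lay between it and its nearest neighbor (Dixon's limit 0.71). The limit was passed in 1 of 20 groups, where chance gives about 1 in 20. This was Chd2 in WT1, at 2472 normalized read counts against 1852 to 2014 in the other WT mice (ratio 0.739). HT5 had a still higher value of 2723, so WT1 lay inside the range of all 10 mice.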

How the results depend on the processing

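The lower Arid1b level kept its direction and passed the threshold under all 25 alternatives, and 0 of the 9 Chd genes passed an adjusted p of 0.05 under any of them. At an unadjusted limma p under 0.05 the number of Chd genes was 1, and it was 2 with quantile normalization, 0 without the variance trend, with sample quality weights, with HT2, HT5 and WT4 left out together, and with the astrocyte or the oligodendrocyte-lineage score, and 0 (without HT2) to 2 (without HT3, WT1 or WT5, where Chd8, Chd6 or Chd9 joined Chd7) with each mouse left out. Kmt2a had an unadjusted p under 0.05 in 13 of the 25. Chd7 stayed higher in HT throughout, from 0.18 to 0.58. Differences of 3 members changed sign. Chd2, reported at 0.09, was -0.0102 with the astrocyte score. Chd3 was -0.00815 with correction for GC content and length (with or without the block), -0.0178 with HT2, HT5 and WT4 left out together, -0.0256 with the astrocyte score and -0.00626 to 0.0536 with each mouse left out. Chd5 was 0.0172 with quantile normalization and 0.00399 with the oligodendrocyte-lineage score. The cause was not tested. With the oligodendrocyte-lineage score, an alternative chosen after seeing the data, 5 of all tested genes had an adjusted p under 0.05, against 3 in the reported fit.

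With the replicate number as a block, Chd7 had a log2 difference of 0.49 (unadjusted limma p 0.0175, adjusted p 0.50) and no call among the members changed. Deviations of same-numbered mice correlated from -0.04 to 0.10, with a mean of 0.04 against -0.009 for other numbers. For 3 of the HT mice the most similar WT mouse had the same number. Whether same-numbered mice shared more than a number is not known from the titles and was not tested. Depth is unknown, so no limit of detection can be given.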
